A study of Mus musculus with 4 samples.

Results

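Dopamine receptors and the proteins that carry their signal in the striatum were examined through 9 listed genes: the dopamine receptors Drd1, Drd2 and Drd4, the receptors Adora2a and Gpr6, the G protein subunits Gnal and Gng7, and the signalling proteins Ppp1r1b and Rasd2. A gene was included where a row of the deposited array table named it as its only gene symbol. In this way 8 of the 9 genes were found, each with 1 row, among 21789 rows with a single symbol for 19938 genes. Adora2a, an adenosine receptor of indirect-pathway neurons, was not analysed here.

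Dopamine acts on medium spiny neurons, the projection neurons of the striatum, through D1-like receptors, which raise cyclic AMP, and D2-like receptors, which lower it. The D1 receptor couples there to the stimulatory alpha subunit encoded by Gnal, which pairs with the gamma subunit encoded by Gng7, and the cyclic AMP formed activates protein kinase A. This kinase phosphorylates DARPP-32, the product of Ppp1r1b, which then inhibits protein phosphatase 1. All these genes are known for high levels in the striatum, whereas Drd4 is known for a low level there and for its presence in the prefrontal cortex.

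RNA from ICR mice was hybridised to 4 one-colour Affymetrix Mouse Gene 1.0 ST arrays, 2 in each group. Per the protocols, the mice received intraperitoneal ketamine at 30 mg/kg or saline once a day. According to the methods they were 1 month old males at the start, were treated for 3 months and had the prefrontal cortex dissected after a water maze test, while the labels call them female. The labels also conflict on the treatment. Each array titled saline has a source field that names ketamine, and each array titled ketamine one that names saline, so the groups are named by title here and every direction would turn if the source field were right. Values are log2 expression from RMA, which corrects background, normalizes across arrays and summarises the probes of each transcript cluster. A gene is called where limma, fitted to all 21789 rows, gave an adjusted p (Benjamini-Hochberg) under 0.05. The design text gives 2 mice per treatment and no technical replicates, so the spread within a group is that of 2 animals.

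The arrays themselves stood apart in ways that touch every value below. The median log2 difference over all tested rows, titled ketamine minus titled saline, was 0.13. Of all calls 70.7% had the higher level under the ketamine title, a share of 51.9% after quantile normalization and 50% after median centring. Both arrays titled saline carried one and the same value in 1449 of 35556 rows and both arrays titled ketamine in 161, against 1 row at most for any pair across the groups. None of the 8 genes was among these tied rows. Over all rows 9.71% were called lower and 23.4% higher on the arrays titled ketamine. Of 14 measured cerebellar markers 14 were called higher on the arrays titled ketamine, among them Gabra6, Cbln3, Neurod1 and Car8 at log2 differences of 6.62, 6.01, 4.48 and 4.30, although the calls of Gabra6 and Car8 were lost with trend and robust moderation (adjusted p = 0.11 and 0.054 from limma). Gabra6 read 6.73 and 3.28 on the arrays titled saline, the second under the background level defined below, so that these arrays too differed and the size of its difference is not resolved (4.90 to 8.35 with 1 array left out). The list medians were 6.05 and 5.57 on the arrays titled saline against 9.40 and 9.20. Of 12 measured markers of cortical projection neurons, which should mark the labelled tissue, 10 were called lower, led by Tbr1, Nrgn, Neurod6 and Mef2c at -4.69, -4.64, -3.58 and -2.71, and Tbr1 and Neurod6 were under the background level defined below on both arrays titled ketamine. Cell markers, title and treatment go together on these arrays, so that they cannot be told apart for any gene below, nor can fewer cells of a type and less RNA per cell.

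The sequences just upstream of the transcription starts of the 4 measured receptors are shown because 3 of these genes fell and 1 did not, so that a reader can compare them. Each line holds the 100 bases before the first listed start, 5′ to 3′ on the gene's strand, from RefSeq on GRCm38.p6. Capitals mark letters of a searched motif.
Drd1 (chr13:54055659-54055758, minus strand): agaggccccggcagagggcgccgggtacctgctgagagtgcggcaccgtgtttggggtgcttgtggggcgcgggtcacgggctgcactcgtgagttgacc
Drd2 (chr9:49340303-49340402, plus strand): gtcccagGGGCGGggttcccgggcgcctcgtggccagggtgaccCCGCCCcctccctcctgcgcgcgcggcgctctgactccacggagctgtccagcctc
Drd4 (chr7:141291918-141292017, plus strand): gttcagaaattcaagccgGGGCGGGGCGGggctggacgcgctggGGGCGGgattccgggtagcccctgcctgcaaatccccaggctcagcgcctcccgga
Gpr6 (chr10:41072291-41072390, minus strand): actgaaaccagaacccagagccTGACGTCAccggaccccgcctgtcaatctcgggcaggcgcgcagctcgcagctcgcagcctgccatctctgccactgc
The motifs were searched on both strands of windows from 250 bases before to 50 bases after a start, of which 6 of the genes had 8. The GC box (GGGCGG) was found in 5 of the 8 windows and in 35.7% of all 32851 windows. The 5 windows belong to 4 genes, namely Drd1 (outside the stretch shown), Drd2, Drd4 and Gng7. The first copies in Drd4 overlap. The cAMP response element (TGACGTCA) was found among these genes in Gpr6 alone, with its first base 78 bases upstream of the start, and in 1.79% of all windows. The shorter site TGACG, which the full element contains, was found in Gpr6 and in a second window of Gng7, and in 20.8% of all windows. No window of these genes held a TATA box (TATAAA), which 13.6% of all windows held. GC boxes stood before both Drd2 and Drd4, and a link between any motif and the levels was not tested.

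Of the 8 measured genes 7 were lower on the arrays titled ketamine and none was called higher. Over all rows 9.71% were called lower and 23.4% higher. The median log2 difference of the 8 genes was -2.30, against 0.13 for all rows. On every array each of the 8 lay above the 95th percentile of 1035 rows of olfactory receptors, which have no known use in most of the brain and stand here for background (4.20 to 4.56). Without titled ketamine array 1, or without array 2, none of the 8 was called, nor any other row. The median log2 difference of the 8 genes was then -2.17 and -2.16, with 1 array left in that group. An exact permutation test of 2 arrays against 2 cannot fall below a two-sided p of 0.333.

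**Figure D1:**
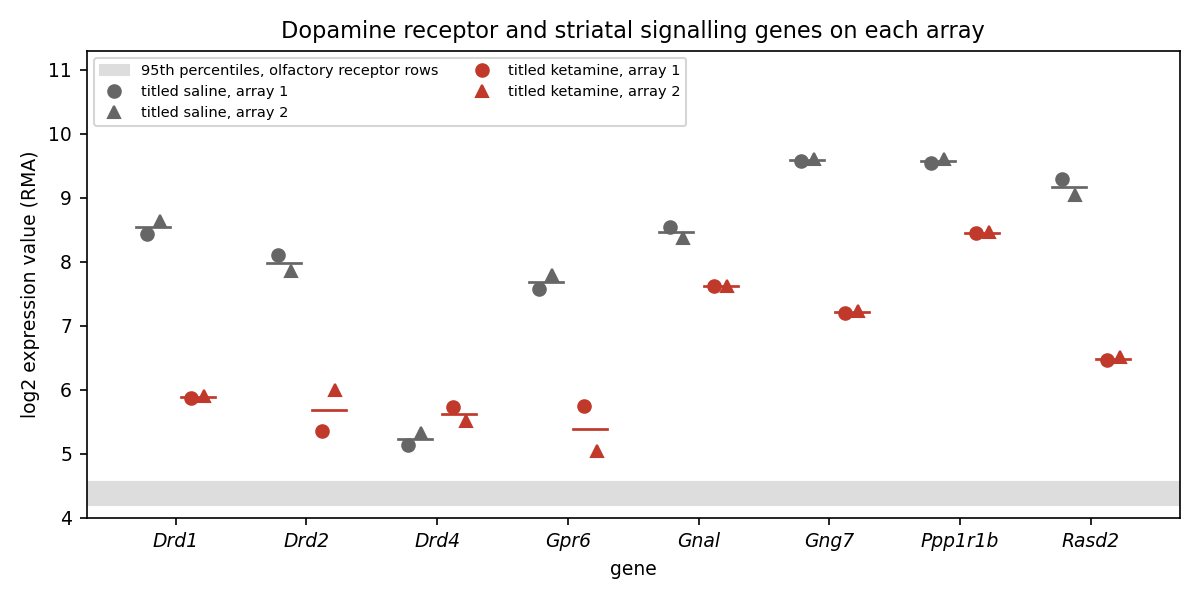
Log2 expression (y axis) of the 8 measured genes (x axis) on each array, in grey (titled saline) or red (titled ketamine), with circles for array 1, triangles for array 2 and bars for group means. The grey band marks the olfactory receptor level defined above (4.20 to 4.56). For 7 genes both red symbols lie below both grey ones, and for Drd4 both lie above. Over all rows 21.5% were lower and 48.4% higher in this way.

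Drd1, the D1 receptor of direct-pathway medium spiny neurons, read 8.44 and 8.64 on the arrays titled saline and 5.87 and 5.91 on those titled ketamine. The groups lay far apart and the arrays within each were close. Its log2 difference was -2.65 (SE 0.117, adjusted p = 2.7e-05 from limma), 6.28-fold lower.
Drd2, the D2 receptor of indirect-pathway neurons and of dopamine neurons themselves, read 8.10 and 7.86 against 5.36 and 5.999. Both arrays titled ketamine lay below both titled saline, but there array 2 stood 0.64 above array 1. The log2 difference of Drd2 was -2.30 (SE 0.207, adjusted p = 0.00032 from limma), with single pairs of arrays from -2.74 to -1.87.
Gpr6, a receptor known to raise cyclic AMP without a ligand and to mark indirect-pathway neurons, read 7.58 and 7.79 against 5.74 and 5.04. Here array 1 was the higher of the arrays titled ketamine, by 0.70, the opposite order to that of Drd2. The log2 difference of Gpr6 was -2.29 (SE 0.219, adjusted p = 0.00042 from limma). In Drd2 and Gpr6 the spread of the arrays titled ketamine (SD 0.449 and 0.493, n = 2) was the widest of the 8 genes, against an SD of 0.0251 for Drd1.

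Drd4 was the exception among the measured genes. It read 5.14 and 5.33 on the arrays titled saline and 5.73 and 5.52 on those titled ketamine, so that the groups did not overlap, with arrays 0.19 and 0.21 apart within them. The log2 difference was 0.39 (95% interval 0.08 to 0.69 before adjustment, adjusted p = 0.055 from limma). After quantile normalization it was 0.24 (adjusted p = 0.17) and after median centring 0.25 (adjusted p = 0.18), whereas with the tied rows left out it was called higher (adjusted p = 0.043), all from limma. Groups that did not overlap were common: 21.5% of all rows were lower and 48.4% higher in this way.

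The remaining dopamine receptors, Drd5 and Drd3, were also called lower. Drd5, the second D1-like receptor, read 5.64 and 5.73 against 4.81 and 5.03, a log2 difference of -0.76 (adjusted p = 0.0035). Drd3, a D2-like receptor of the ventral striatum, read 5.06 and 5.25 against 4.60 and 4.39, a difference of -0.66 (adjusted p = 0.0078). On titled ketamine array 2 Drd3 was under the olfactory receptor level, so that the size of its difference is not resolved. The 95% intervals of Drd5 (-1.05 to -0.48) and of Drd1 (-2.93 to -2.38) did not overlap. However, the olfactory receptor level on the arrays titled ketamine was 4.56 and 4.46, close below Drd5. A fall as large as that of Drd1 could therefore not be resolved for Drd5. Of 5 dopamine receptors 4 were thus called lower and none higher, on a list that includes Drd1, Drd2 and Drd4. Over all rows 9.71% were called lower and 23.4% higher.

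Gng7 and Gnal, the G protein subunits that work together beside the D1 receptor, both fell but by different amounts. Gng7 read 9.58 and 9.60 against 7.21 and 7.24, with a log2 difference of -2.37 (SE 0.104, adjusted p = 2.7e-05), 5.17-fold lower. Gnal read 8.55 and 8.38 against 7.62 and 7.62, with a log2 difference of -0.84 (SE 0.112, adjusted p = 0.0017), 1.79-fold lower. The arrays titled ketamine differed by 0.03 for Gng7 and by 0.0041 for Gnal, and the groups did not overlap. Single pairs of arrays gave -2.40 to -2.34 for Gng7 and -0.93 to -0.76 for Gnal, so that the amounts of the fall did not meet.

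Relatives of these subunits were called in both directions, and the calls of higher level were no more frequent than the 23.4% over all rows (9.71% for lower). Of 11 other gamma subunits 4 were called lower, 2 higher and 5 not. Gng13 read 5.88 and 5.71 on the arrays titled saline and 8.45 and 7.91 on those titled ketamine. Both were higher, and the log2 difference was 2.39 (adjusted p = 0.00016), as large as that of Gng7 but in the opposite direction. The 14 measured cerebellar markers were called higher on the same arrays, and a link to Gng13 was not tested. Gng2 and Gng4 were lower by log2 differences of -1.08 and -0.89, and Gng5 was higher by 0.57, a call that was lost after quantile normalization (0.44, adjusted p = 0.055). Over the 12 gamma subunits, Gng7 included, calls numbered 5 lower and 2 higher, but 3 and 1 without titled saline array 1 and 4 and 1 without array 2.
Of 7 other alpha subunits 2 were called lower, 1 higher and 4 not. Gnaz and Gna11 had log2 differences of -0.69 and -0.38. Gnai3, an inhibitory subunit, had one of 0.48, and its call was lost after median centring (0.35, adjusted p = 0.053). Gnai1, another inhibitory subunit, stood at 0.20 and was not called (adjusted p = 0.20).
Of 5 beta subunits only Gnb2 was called, with a log2 difference of -0.64, while Gnb3, Gnb4 and Gnb1 stood at 0.30, 0.14 and -0.11 without a call. Without titled saline array 2 neither Gnai3 nor Gnb2 was called. The adjusted p-values of these relatives are from the same limma fit.

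**Figure D2:**
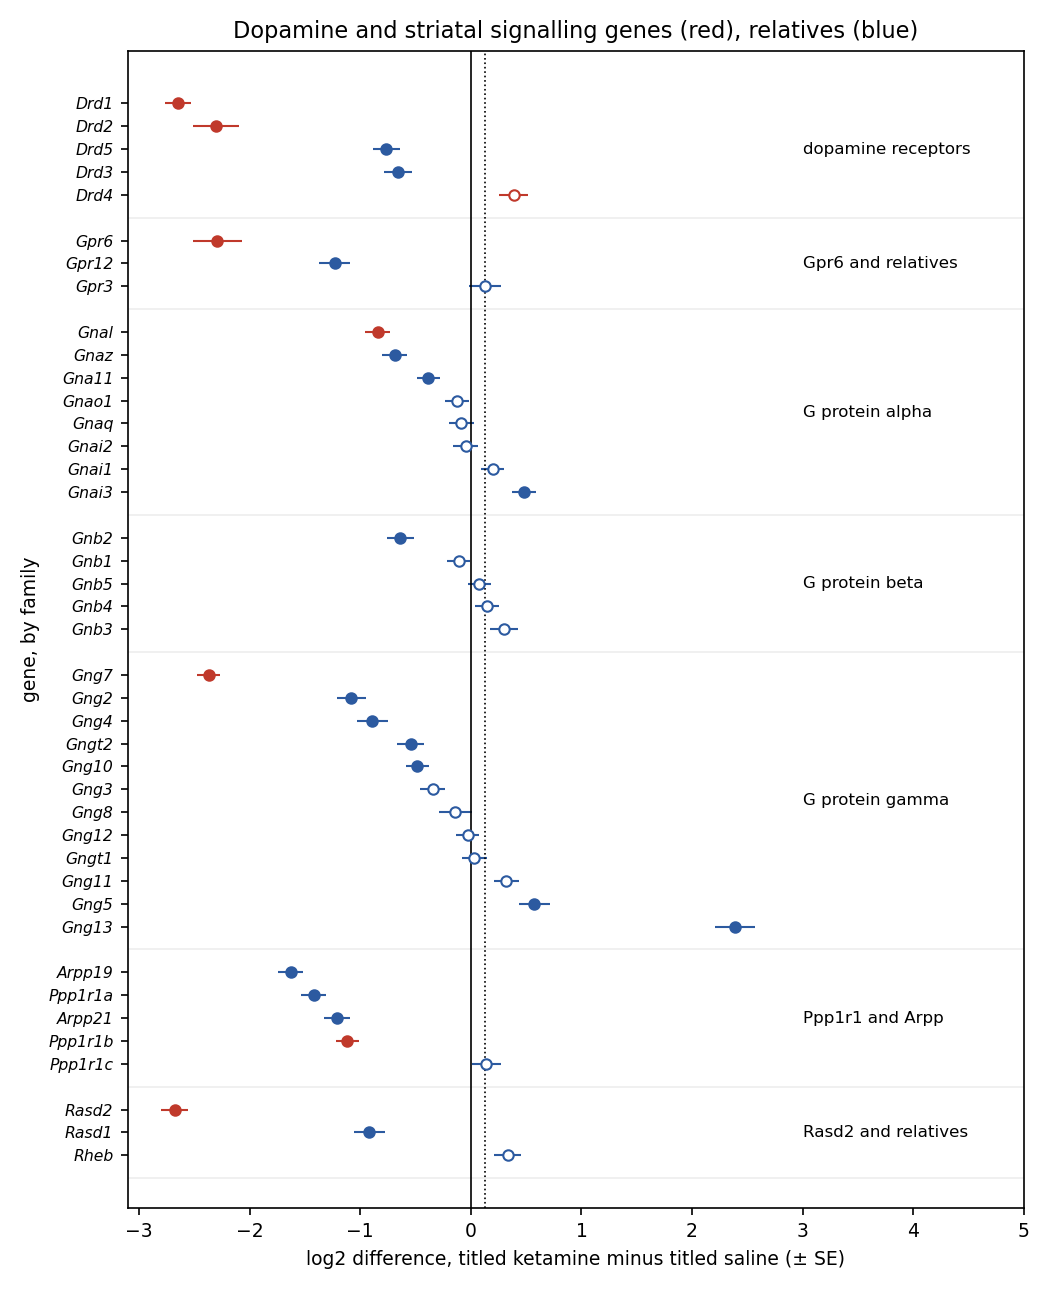
Log2 difference between the arrays titled ketamine and those titled saline (x axis, bars are standard errors from limma) for single genes grouped by family (y axis), red for the genes under study and blue for their relatives. Filled points were called at an adjusted p under 0.05, and the dotted line is the median of all rows (0.13). Drd1 and then Drd2 lie farthest to the left among the dopamine receptors, as do Gpr6, Gnal, Gng7 and Rasd2 in their families, whereas Gng13 lies at 2.39.

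Ppp1r1b, which encodes DARPP-32, read 9.54 and 9.61 on the arrays titled saline and 8.45 and 8.47 on those titled ketamine. Its values on the arrays titled ketamine were tightly placed and still far above background. The log2 difference was -1.12 (SE 0.105, adjusted p = 0.00039), 2.17-fold lower, and single pairs of arrays gave -1.16 to -1.07. This was a smaller fall than that of Drd1, whose pairs gave -2.77 to -2.53. Of 4 relatives, Arpp19 and Arpp21, which encode other phosphoproteins regulated by cyclic AMP, and Ppp1r1a, which encodes another inhibitor of protein phosphatase 1, were lower by log2 differences of -1.63, -1.21 and -1.42. Ppp1r1c read 3.66 and 3.95 against 3.94 and 3.95, below the olfactory receptor level, and no change was detectable there.

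Rasd2, which encodes the small GTPase Rhes of medium spiny neurons, had the largest measured difference of the 8 genes, though its 95% interval (-2.97 to -2.39) overlapped that of Drd1. It read 9.29 and 9.04 against 6.46 and 6.51, a log2 difference of -2.68 (SE 0.124, adjusted p = 3.0e-05), 6.41-fold lower. Counted from the most negative difference of all 21789 rows, Rasd2 was at place 50, Drd1 at 53, Gng7 at 82, Drd2 at 90 and Gpr6 at 93, whereas Ppp1r1b was at 538 and Gnal at 826. Rasd1, its closest relative, which glucocorticoids induce, had a log2 difference of -0.92 (adjusted p = 0.0032). Rheb, the small GTPase upstream of mTOR, had a difference of 0.33 (adjusted p = 0.076) and was called higher in limma with rows under the median level left out (adjusted p = 0.040) and with trend and robust moderation (adjusted p = 0.014). For the receptors Gpr12 and Gpr3, which like Gpr6 raise cyclic AMP without a ligand, the differences were -1.23 (adjusted p = 0.00091) and 0.13 (adjusted p = 0.54).

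In the wider signalling pathway the fall was uneven. Of 33 measured genes of striatal cyclic AMP signalling 15 were called lower, 2 higher and 16 not, with a median log2 difference of -0.26. The calls numbered 16 lower and 1 higher after quantile normalization, and 17 and 1 after median centring. Over all rows 9.71% were called lower and 23.4% higher. The largest differences were those of Rgs9, which speeds the shut-off of G proteins in the striatum, at -2.72, Rasgrp1, an activator of Ras, at -2.56, Akap5, an anchor of protein kinase A, at -2.45, and the phosphodiesterase gene Pde2a at -2.38. Adcy5, the main adenylyl cyclase of the striatum, read 9.22 and 9.15 against 7.36 and 7.54, a difference of -1.73 (adjusted p = 9.5e-05), between those of Gng7 and Gnal. Of 5 measured subunits of protein kinase A, Prkar2b, Prkar1b and Prkacb were called lower, with differences of -1.91, -0.59 and -0.36 (adjusted p = 0.00021, 0.0063 and 0.041). Prkar1a and Prkar2a stood at -0.07 and -0.03 (adjusted p = 0.64 and 0.88). No catalytic subunit of protein phosphatase 1, the target of DARPP-32, was called lower. Ppp1cc was higher by 0.72 (adjusted p = 0.0048), Ppp1cb stood at 0.20 (adjusted p = 0.19) and Ppp1ca at -0.26 (adjusted p = 0.11), all from limma. Ppp1ca was called lower after median centring (adjusted p = 0.032), and with trend and robust moderation Ppp1ca was called lower and Ppp1cb higher (adjusted p = 0.028 and 0.044).

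Other genes of medium spiny neurons were mostly lower too, but so were the markers of cortical projection neurons, whose median log2 difference was -1.70. Over all rows 9.71% were called lower and 23.4% higher. Of 21 measured markers of medium spiny neurons, 4 of which also stand on the pathway list, 19 were called lower, 1 higher and 1 not. Their median log2 difference was -1.47. With trend and robust moderation 17 of these markers were called lower. Their list medians were 7.71 and 7.71 on the arrays titled saline and 6.40 and 6.42 on those titled ketamine. Tac1, the precursor of substance P in direct-pathway neurons, read 9.41 and 9.13 against 4.88 and 6.69, a log2 difference of -3.49 whose call was lost with trend and robust moderation (adjusted p = 0.11 from limma). Meis2, at -1.92, lost its call in the same way (adjusted p = 0.070 from limma). Rgs9 and Gpr52, a receptor that raises cyclic AMP, had differences of -2.72 and -2.12. The markers Isl1 and Ido1 were under the olfactory receptor level on both arrays titled ketamine. Ido1 was under it on titled saline array 2 as well (4.16 against 4.43), so that the size of its difference is not resolved. Ebf1, a transcription factor of the developing striatum that other brain regions also express, was the marker that was higher, by 2.19.
Of 10 markers of dopamine neurons, the source of the ligand, 4 were called lower, 1 higher and 5 not. The count called lower was 2 without titled saline array 1 and 1 without array 2. Slc6a3, the dopamine transporter, read 7.44 and 7.33 against 5.74 and 5.24, a difference of -1.90. Nr4a2 and Ddc, a transcription factor and an enzyme of these neurons, had differences of -1.27 and -1.09, and Aldh1a1, an enzyme of retinoic acid synthesis, one of 1.85. Th, at -0.77, was the other marker called lower. Slc18a2, at -0.75, was not called (adjusted p = 0.084 from limma) and read 5.28 and 6.27 on the arrays titled ketamine. In limma it was called lower after median centring (adjusted p = 0.033) and with tied rows left out (adjusted p = 0.035). The count of these markers called lower was 5 in both settings. Pitx3, Foxa2, En1 and Lmx1b at 0.14, 0.15, 0.21 and 0.23 were not called. Over the other lists, 8 of 8 microglial markers were called lower and 9 of 10 choroid plexus markers higher, while 3 of 7 astrocyte markers were higher and 1 lower, and 1 of 8 oligodendrocyte markers was higher (none without titled saline array 2). Over all rows the shares were 9.71% lower and 23.4% higher, and the oligodendrocyte count did not exceed the latter. The part of these cell types in the falls of Drd1, Drd2 and the other genes was not tested.

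**Figure D3:**
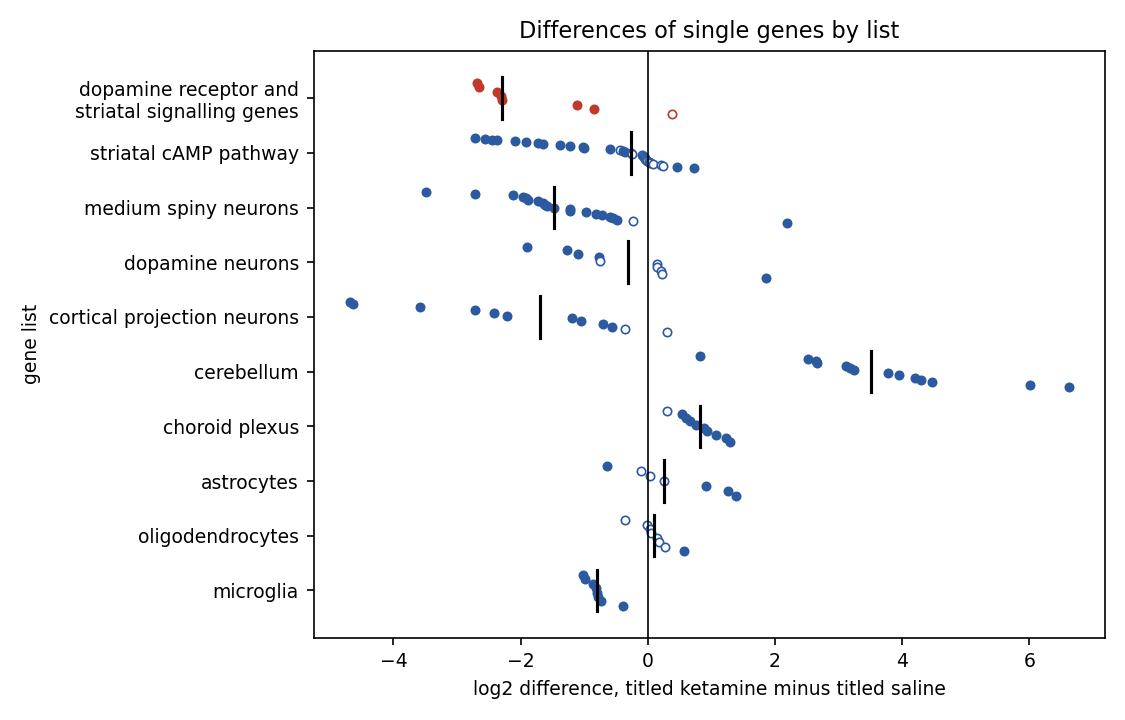
Log2 difference between the arrays titled ketamine and those titled saline (x axis) for single genes of each list (y axis), red for the genes under study and blue for the others. Filled points were called at an adjusted p under 0.05 and black bars are list medians. The 8 genes have a median of -2.30, markers of medium spiny neurons one of -1.47, markers of cortical projection neurons one of -1.70 and cerebellar markers one of 3.51.

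The genes whose 4 values ran most like those of 3 of the receptors and signalling genes were found by the Euclidean distance between log2 values after each gene's mean was subtracted, over 9877 genes at or above the median level. For Drd1 these were Cacng3 (distance 0.167), Mef2c (0.174) and Crym (0.215), with log2 differences of -2.74, -2.71 and -2.86. For Drd2 they were Cpne7 (0.101), Rasgrf2 (0.212) and Gpr83 (0.248), and Cpne7 too was higher on titled ketamine array 2 than on array 1, at 5.43 against 4.76. For Ppp1r1b they were Dlgap3 (0.0461), Grm7 (0.0540) and Slc35f1 (0.0593). With 4 arrays such a likeness mostly restates the difference between the groups, and it is given as a description.

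**Figure D4:**
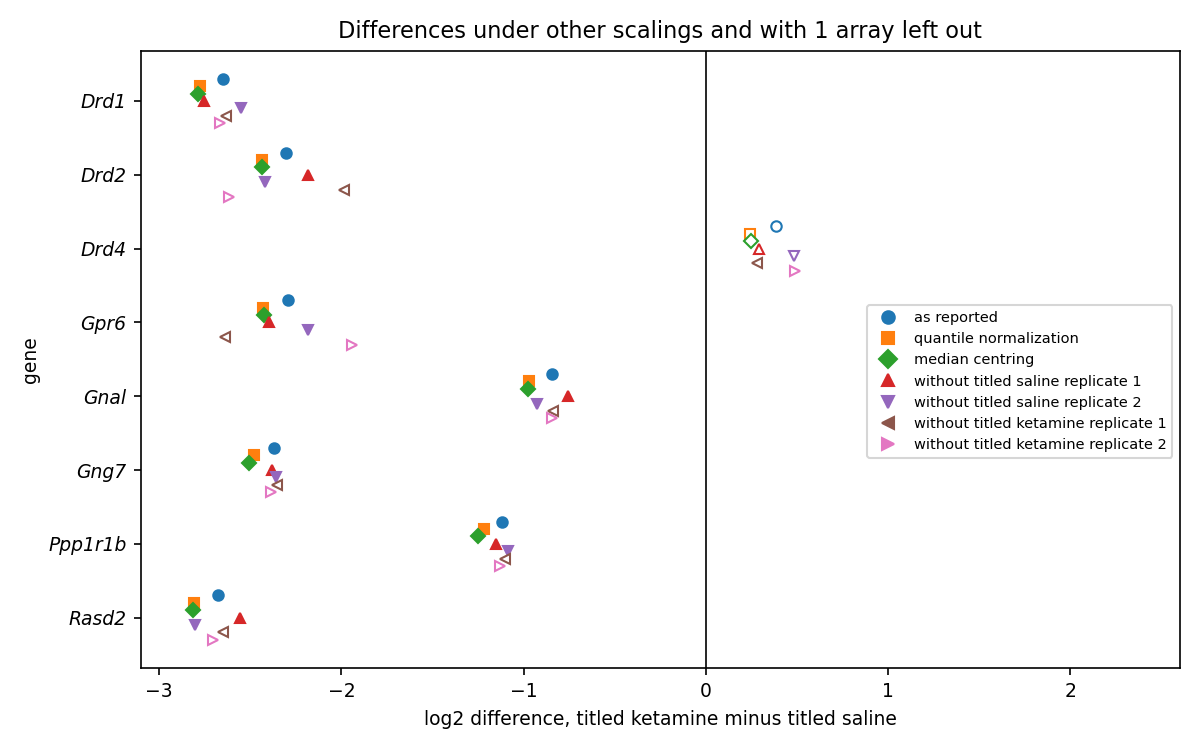
Log2 difference between the arrays titled ketamine and those titled saline (x axis) for each measured gene (y axis) as reported, after quantile normalization or median centring, and with 1 array left out. Filled symbols were called at an adjusted p under 0.05 in limma. Every symbol of 7 genes lies below 0 and every symbol of Drd4 above it, and symbols are open for Drd4 and for fits without a titled ketamine array.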

How the data were processed

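Total RNA, described as from prefrontal cortex, was measured on 4 arrays. Per the labels, the deposited log2 values are RMA output of Affymetrix Expression Console (core-exon analysis), although the design text names another Affymetrix tool. The sources used here give neither version nor genome build, nor whether the groups were normalized together. The study's methods name no test for the arrays.

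Samples were grouped by title. Of 35556 rows, 21789 carried 1 gene symbol in the platform annotation, 1621 several and 12146 none. Rows with 1 symbol were tested across all genes with limma (version 3.58.1, R version 4.3.3) by lmFit and eBayes, two-sided, with Benjamini-Hochberg adjustment, and the function was tested on simulated data. Where a gene had more than 1 row, lists used that of highest mean. The number of arrays limits the precision. The genes under study and all lists were chosen with earlier results of these data known. Named were all genes of the small families, the 4 genes of each larger family or main list with the largest difference, and 3 genes nearest in profile. Adcy5, the protein kinase A subunits, Ppp1ca, Ppp1cb and Ppp1cc were named after their values were seen. So were Meis2, Th, Slc18a2, Pitx3, Foxa2, En1 and Lmx1b. Some listed genes, the adenosine receptors among them, were not analysed here. Alternatives covered normalization, filter, moderation, rows, a replicate block and each array left out.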

Additional observations from a re-analysis of the deposited data

How the results depend on the processing

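The 7 genes called lower (Drd1, Drd2, Gpr6, Gnal, Gng7, Ppp1r1b and Rasd2) were also called lower under quantile normalization, median centring, the filter on low rows, trend and robust moderation, rows with any symbol and the replicate block. Leaving out 1 array gave 0 to 7 of them: 7 without either array titled saline and 0 without either array titled ketamine. Over all rows, leaving out 1 array gave 0 to 1403 rows called lower and 0 to 3171 higher. Without a titled ketamine array the spread comes from the arrays titled saline alone, which hold equal values in 916 of the tested rows. With tied rows also left out, an alternative chosen after seeing the data, 7 genes were called without titled ketamine array 1 and 7 without array 2, but limma then gave all rows one common spread, so that these calls carry little weight. No direction turned in any alternative for the 8 genes.

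Drd4 was the 1 gene called higher with the replicate block (adjusted p = 0.036 from limma), with tied rows left out, and with tied rows and titled ketamine array 2 left out. Same-numbered arrays shared only a number (correlation of their deviations 0.034 over rows), and the block changed no other call among the 8. The median difference of the 8 genes was -2.43 after quantile normalization and -2.43 after median centring, -2.28 to -2.16 with 1 array left out, and -2.17 and -2.16 with tied rows and titled ketamine array 1 or 2 left out. Rows called lower numbered 3213 after median centring. Rows called higher numbered 3210 there, 3311 after quantile normalization, and 3357 with tied rows and titled ketamine array 1 left out. The filter on low rows removed Drd4 and left 7 genes.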

Other observations

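Ties between arrays ran within the titled groups. The arrays titled saline held equal values in 1449 rows of 35556 and those titled ketamine in 161, while the 4 pairs across the groups held 0, 0, 0 and 1. Among the rows tested these were 916, 95 and 1. Whether RMA was run on each group by itself was not tested, and the sources used here do not say.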
